A study of Mus musculus with 6 samples.

Results

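Expression of 10 genes of MHC class I antigen presentation, *H2-D1*, *H2-K1*, *B2m*, *Tap1*, *Tap2*, *Tapbp*, *Psmb8*, *Psmb9*, *Psmb10* and *Nlrc5*, was examined in sorted male primordial germ cells (PGCs) at E13.5. The genes were taken by symbol from an array table of 24479 rows, in which all 10 had a row. They were chosen by their role in the pathway with the *Fancg*-/- minus WT log2 differences already known, that of *H2-D1* being among the lowest of all genes, so that their differences are given as a description and no test is attached to them. There were 3 samples labelled *Fancg*-/- (strain label og2.fvb.fancg -/-) and 3 WT samples (og2.fvb.fancg +/+), all from male E13.5 embryos of heterozygous matings. Embryos of both groups carried the OG2 transgene, an EGFP reporter under the *Oct3/4* distal enhancer, and PGCs were sorted by GFP fluorescence. The mutant allele is marked by *Pgk-hygromycin*. Each sample was a pool of embryos, so that the values are those of pools and not of single animals.

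MHC class I molecules display peptides from inside the cell on its surface, where T cells and natural killer cells read them. A heavy chain, encoded in the mouse by *H2-K1* and *H2-D1*, pairs with the light chain beta-2 microglobulin, encoded by *B2m*. Peptides are cut by the proteasome, in which PSMB8, PSMB9 and PSMB10 replace the constitutive catalytic subunits after interferon. The TAP1 and TAP2 transporter carries them into the endoplasmic reticulum, and tapasin, encoded by *Tapbp*, holds the empty heavy chain at the transporter until a peptide is loaded. NLRC5 is a coactivator that binds no DNA by itself and acts on class I promoters through the RFX proteins bound at the X box.

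Values are log2 signals of Affymetrix Mouse Gene 2.0 ST arrays, normalized by the authors by RMA, and the precision is limited by there being 3 arrays in each group. Differences are given as *Fancg*-/- minus WT. Of 23837 genes with a name, none was called by limma (adjusted p under 0.05, 0.0% of genes), 2956 had an unadjusted p under 0.05, and the equal-variance test of the study's methods gave 2408 at that threshold and none after adjustment. Sample medians were within 4.68 to 4.75. *Fancg* itself had log2 values of 6.38, 6.65 and 6.87 in samples labelled *Fancg*-/- and of 6.07, 5.95 and 6.37 in WT samples (log2 difference 0.51, limma adjusted p = 0.27). The position of its probes relative to the disruption was not analysed here, so that this value does not check the labels, and the mutant samples are called labelled samples throughout. Germ cell markers were bright in every sample, their mean over 14 genes lying between 9.33 and 9.39 in labelled samples and between 9.20 and 9.29 in WT samples. These means were thus higher in each labelled sample, and the median log2 difference of the 14 genes was 0.11. All labelled samples lay above all WT samples in 4 of the 14 and below them in 1. Over all named genes, this held for 9.45% and 8.45%.

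The 10 genes did not move together. *H2-D1* and *B2m* were lower in each labelled sample than in each WT sample, *Tapbp* and *Psmb10* were higher in each, and the groups of the other 6 genes overlapped. Over all named genes, the groups were apart in the lower direction in 8.45% and in the higher direction in 9.45%, or in 17.9% in either direction, and nothing is read from the 4 of 10 genes set apart here, as the same comparison led to their choice. The median log2 difference of the 10 genes was 0.07, against 0.01 over all named genes, and the differences ran between -1.37 and 0.33. None of the 10 was called over all genes.

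**Figure D1:**
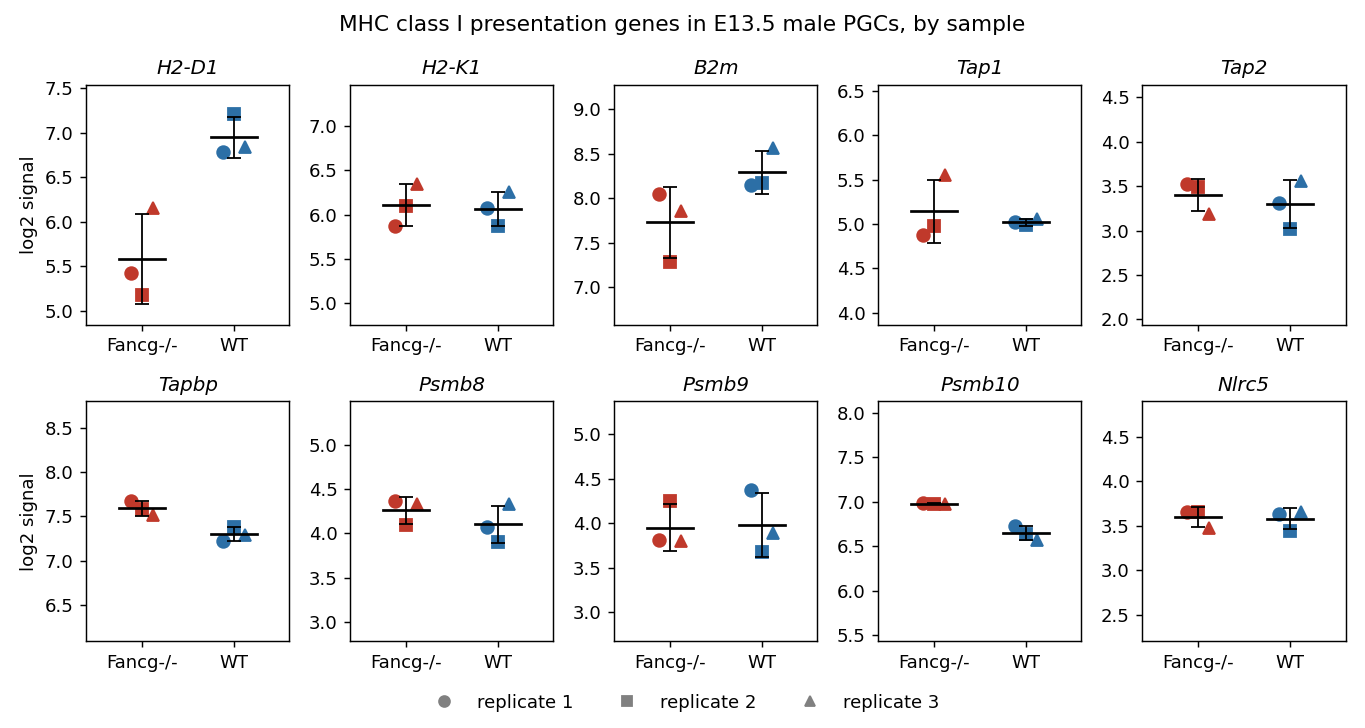
Log2 signal of the 10 class I presentation genes (vertical axes, each spanning the same number of log2 units around the gene) in the 3 samples labelled Fancg-/- (red, left) and the 3 WT samples (blue, right), with replicate numbers by symbol, group means as horizontal lines and SD as bars. H2-D1 is at 5.17 to 6.15 in labelled samples and at 6.79 to 7.21 in WT samples, whereas the H2-K1 values of both groups overlap.

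*H2-D1*, on chromosome 17, encodes a classical heavy chain. Its log2 values were 5.42, 5.17 and 6.15 in samples labelled *Fancg*-/-, against 6.79, 7.21 and 6.84 in WT samples. All labelled samples lay below all WT samples, with a gap of 0.64 between the nearest values, and labelled replicate 3 was the highest of its group. The means were 5.58 ± 0.51 (SD, n = 3) in labelled samples and 6.95 ± 0.23 (SD, n = 3) in WT samples, a log2 difference of -1.37 (standard error 0.24) or a 2.58-fold lower signal. By difference it ranked 9 from the lowest of all named genes. The difference was -1.65 without labelled replicate 3 and -1.16 without labelled replicate 2, the farthest values when single samples were left out.

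*H2-K1*, the other classical heavy chain gene, was measured at 5.87, 6.10 and 6.35 in labelled samples and at 6.07, 5.87 and 6.25 in WT samples, so that the groups interleaved. The log2 difference was 0.04 (standard error 0.15), and its sign turned when labelled replicate 3 (-0.08) or WT replicate 2 (-0.05) was left out. The heavy chain genes are close paralogs, and probes of one may pick up transcripts of another. The probe sequences were not analysed here.

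*B2m*, on chromosome 2, encodes the light chain shared by all class I molecules. It had log2 values of 8.05, 7.28 and 7.85 in labelled samples and of 8.15, 8.17 and 8.57 in WT samples. The groups did not overlap, but they came within 0.09 of each other, and labelled replicate 2 was well below the rest. The means were 7.73 ± 0.40 (SD, n = 3) in labelled samples and 8.29 ± 0.24 (SD, n = 3) in WT samples, a log2 difference of -0.57 (standard error 0.21) or a 1.48-fold lower signal. Without labelled replicate 2 the difference was -0.34.

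The promoters of these 3 genes are shown because the heavy chain genes carry much the same control elements and yet differed in their values. Sequences are the 250 bases before the RefSeq start in assembly GRCm38.p6, which is C57BL/6J sequence, and the alleles of the embryos were not analysed here. Capitals mark matches, on either strand, to the core of the X2 element (TGACGC), the core of the Y box (CCAAT, or ATTGG on the other strand) and an interferon-stimulated response element (GAAA, any 2 bases, and GAAA again, here GAAACTGAAA). *H2-D1* is shown at chr17:35262844-35263093 (+ strand), *H2-K1* at chr17:34000334-34000583 (- strand, the more downstream of its RefSeq starts) and *B2m* at chr2:122147437-122147686 (+ strand).
H2-D1: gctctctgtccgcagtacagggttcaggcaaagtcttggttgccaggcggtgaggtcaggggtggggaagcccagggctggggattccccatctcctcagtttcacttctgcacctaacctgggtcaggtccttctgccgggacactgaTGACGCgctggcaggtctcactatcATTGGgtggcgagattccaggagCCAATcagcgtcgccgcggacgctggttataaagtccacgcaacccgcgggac
H2-K1: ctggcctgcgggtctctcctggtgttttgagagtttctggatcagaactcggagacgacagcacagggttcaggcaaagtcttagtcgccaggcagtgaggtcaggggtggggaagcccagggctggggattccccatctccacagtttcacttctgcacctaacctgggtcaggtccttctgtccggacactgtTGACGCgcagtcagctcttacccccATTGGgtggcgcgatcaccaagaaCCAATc
B2m: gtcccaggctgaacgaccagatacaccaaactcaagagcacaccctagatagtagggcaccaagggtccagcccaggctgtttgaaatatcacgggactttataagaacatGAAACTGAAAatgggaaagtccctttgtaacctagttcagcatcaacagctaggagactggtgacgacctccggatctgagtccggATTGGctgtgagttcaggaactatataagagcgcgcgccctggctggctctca
In *H2-D1* the X2 core lay at -101 and Y box cores at -76 and -53, counted from the start to the first base of the match. In *H2-K1* they lay at -55, -30 and -6, and in both genes the first base of the next Y box core lay 25 bases after that of the X2 core. The upstream sequences of the heavy chain genes were identical at 177 of 203 aligned positions (87.2%). *B2m* had a Y box core at -53 and the interferon element at -139, and no exact match to the X2 letters in this window. The search allowed no mismatch. The letters TGACGA, which differ from the X2 core in the last base only, begin 25 bases before the Y box core of *B2m*, the same spacing as in the heavy chain genes. These letters were looked at after the search, and their share over all windows was not counted. They also occur in the overlapping windows of *Tap1* and *Psmb9*, so that nothing is read from them.

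Of the 10 genes, 8 had a promoter entry. The X2 core was found in 2 of these 8, *H2-D1* and *H2-K1*, against 6.12% of 32851 promoter windows of the same length. The Y box core was found in 6 of 8, against 33.8% of windows, and the windows of *Tap1* and *Psmb9*, which start in opposite directions, overlap. An exact match to the letters of the interferon element was found in *B2m* alone of the 8 genes (2.98% of windows). Variants of the element were not searched, so that their absence from the other windows cannot be read. *Tapbp* had Y box cores and neither of the other motifs, and *Psmb8* and *Psmb10* had none of the 3. A further motif searched, the GAS element (TTCNNNGAA, with N any base), matched in *Psmb8* alone of the 8 genes, as TTCCCAGAA at -97 (7.02% of windows). These matches are descriptions of letters and say nothing of binding.

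The groups of both transporter genes overlapped. *Tap1*, which encodes an ATP-binding subunit of the peptide transporter, had values of 4.88, 4.98 and 5.55 in labelled samples and of 5.02, 4.99 and 5.06 in WT samples. Labelled replicate 3 was the highest of all samples and the other 2 labelled samples were the lowest, and the log2 difference of 0.11 (standard error 0.17) became -0.09 without labelled replicate 3. *Tap2*, the partner subunit, was measured at 3.53, 3.49 and 3.19 in labelled samples and at 3.31, 3.02 and 3.56 in WT samples, a log2 difference of 0.10 (standard error 0.16). Its mean signal was in the lowest 25% of named genes.

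*Tapbp*, which encodes tapasin, was higher in labelled samples, at 7.67, 7.58 and 7.52, than in WT samples, at 7.22, 7.38 and 7.29. The groups were apart by 0.14, each with an SD of 0.08 (n = 3), and the means were 7.59 in labelled samples and 7.30 in WT samples. The log2 difference was 0.29 (standard error 0.09), a 1.23-fold higher signal, and it lay between 0.25 and 0.33 over all alternatives. *Rgl2*, the measured gene next to *Tapbp*, was also higher in all labelled samples, at 7.05, 6.95 and 7.08 against 6.76, 6.65 and 6.68 in WT samples (limma adjusted p = 0.21). On the other side of *Tapbp*, the predicted gene Gm19412 had groups that overlapped.

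Of the immunoproteasome subunits, the groups were apart in *Psmb10* and overlapped in *Psmb8* and *Psmb9*. *Psmb10*, on chromosome 8 and outside the MHC, had values of 6.99, 6.98 and 6.97 in labelled samples and of 6.73, 6.64 and 6.57 in WT samples. The labelled samples had an SD of 0.01 (n = 3), against 0.08 in WT samples (n = 3), and all lay above the WT samples, with a gap of 0.23. The log2 difference was 0.33 (standard error 0.09), a 1.26-fold higher signal, with 0.29 to 0.38 over all alternatives. *Psmb8* was at 4.37, 4.09 and 4.33 in labelled samples and at 4.07, 3.90 and 4.33 in WT samples, a log2 difference of 0.16 (standard error 0.13), and its groups overlapped. *Psmb9* was at 3.81, 4.25 and 3.80 in labelled samples and at 4.37, 3.67 and 3.89 in WT samples. Its log2 difference was -0.03 (standard error 0.20), with a sign that turned in 3 of 9 alternatives.

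*Nlrc5*, the class I coactivator, was measured at 3.66, 3.66 and 3.47 in labelled samples and at 3.63, 3.44 and 3.66 in WT samples. The log2 difference was 0.02 (standard error 0.10), and the groups overlapped.

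**Figure D2:**
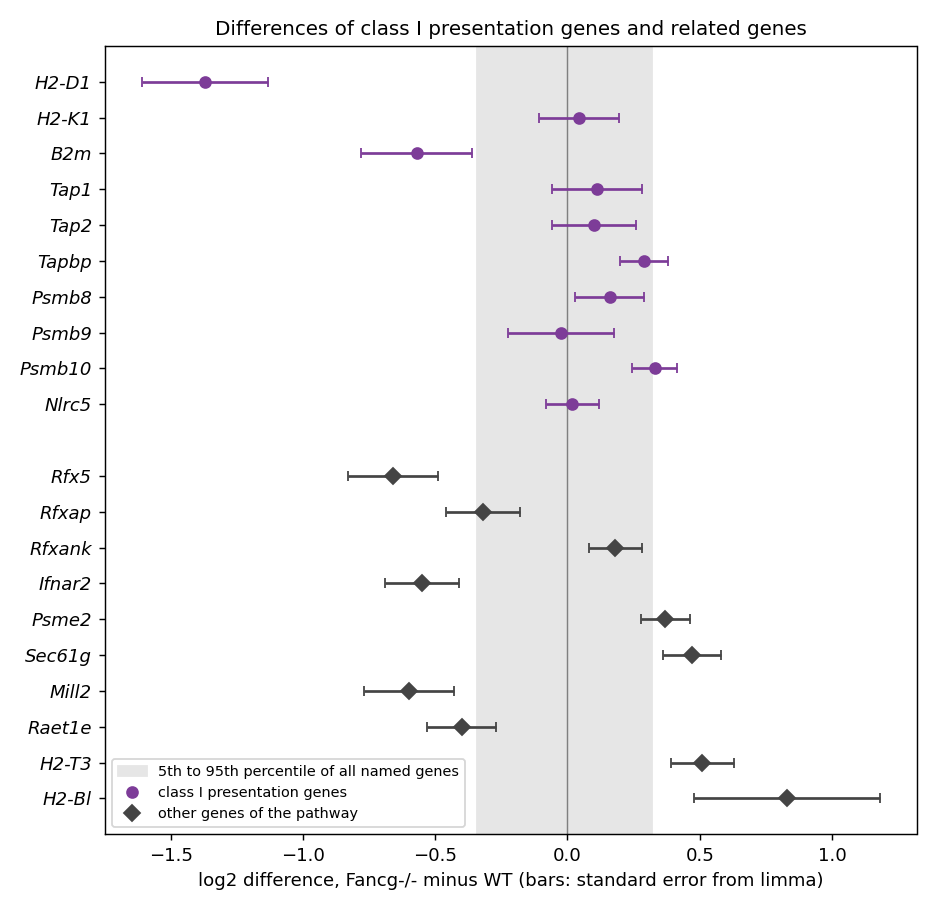
Log2 difference, Fancg-/- minus WT (horizontal axis), of the 10 class I presentation genes (circles) and of 10 related genes (diamonds), with standard errors from limma as bars. The grey band, between -0.34 and 0.32, holds the middle 90% of all named genes. H2-D1 at -1.37 and B2m at -0.57 lie below the band and Psmb10, at 0.33, lies at its upper edge.

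Related genes were taken from 8 lists with 133 measured genes, written with earlier results of these data known. Of these 133 genes, 10 were lower and 6 were higher at an unadjusted p under 0.05 from limma, against 6.17% lower and 6.23% higher of all named genes, and none was called after adjustment. The genes named below are among the 4 with the smallest p of each list, unless stated. Among 14 transcription factors of MHC genes, *Rfx5*, which encodes the DNA-binding subunit of the RFX complex, had values of 5.99, 5.29 and 5.53 in labelled samples and of 6.10, 6.33 and 6.35 in WT samples. The groups were apart, with a log2 difference of -0.66 (standard error 0.17, limma adjusted p = 0.21), and the gene had been read in a table of the study before the list was written. Its partner subunits went both ways, *Rfxap* with a difference of -0.32 (standard error 0.14, limma adjusted p = 0.42) and *Rfxank* with 0.18 (standard error 0.10, limma adjusted p = 0.55), and in both the groups overlapped. The class II transactivator gene *Ciita* had 0.05 and *Irf1*, an interferon-induced activator of class I promoters, had -0.06, both named after their values were seen.

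In the interferon receptor list of 11 genes, 8 differences were below 0, with a median of -0.17, and 2 genes were lower at an unadjusted p under 0.05. *Ifnar2*, a subunit of the type I interferon receptor, was at 5.39, 5.46 and 5.69 in labelled samples and at 5.85, 6.04 and 6.30 in WT samples (log2 difference -0.55, standard error 0.14, limma adjusted p = 0.20). *Ifnar1*, the partner of *Ifnar2*, was higher in each labelled sample, with a difference of 0.21 (limma adjusted p = 0.47). Of 30 interferon-stimulated genes, 3 were lower and 1 was higher at an unadjusted p under 0.05. The lower ones were *Ifi27* (-0.46), *Xaf1* (-0.37) and *Dtx3l* (-0.45), and the higher one was the antiviral gene *Rsad2* (0.35), with limma adjusted p between 0.20 and 0.28.

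Among genes of peptide supply, *Psme2*, a subunit of the PA28 proteasome activator, was at 7.41, 7.29 and 7.24 in labelled samples and at 6.90, 7.04 and 6.89 in WT samples. This was a log2 difference of 0.37 (standard error 0.09, limma adjusted p = 0.21) in the same direction as *Psmb10*. The activator gene *Psme4* had -0.20 (limma adjusted p = 0.39), and the other 12 genes of this list did not reach an unadjusted p of 0.05. Of 13 genes of peptide loading and of the endoplasmic reticulum, *Sec61g*, a subunit of the translocation channel, was higher, at 10.44, 10.33 and 10.36 in labelled samples and 10.09, 9.80 and 9.82 in WT samples. Its log2 difference was 0.47 (standard error 0.11, limma adjusted p = 0.18), *H13*, the signal peptide peptidase gene, had -0.24 (limma adjusted p = 0.47) and the chaperone gene *Canx* had 0.14 (limma adjusted p = 0.56). The list of peptide loading genes had a median of 0.06.

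A list of H2 class I genes besides *H2-D1* and *H2-K1* held 24 measured genes, of which 16 had a difference above 0, with a median of 0.09. None of the 24 was lower at an unadjusted p under 0.05 and 3 were higher. These were *H2-T3*, at 4.18, 4.44 and 4.49 in labelled samples and 3.81, 4.0 and 3.76 in WT samples (log2 difference 0.51, standard error 0.12, limma adjusted p = 0.19), *H2-M5* (0.24) and *H2-Bl* (0.83, with groups that overlapped). Of these 24 genes, 12 had a mean signal in the lowest 25% of named genes. *H2-K2*, which is in no list and was named after its values were seen, had a difference of -0.20 (limma adjusted p = 0.58). Its groups overlapped. Of 14 class I-like genes outside the MHC, 3 were lower at an unadjusted p under 0.05. *Mill2*, which had also been read in a table of the study, was at 4.13, 3.48 and 3.95 in labelled samples and at 4.58, 4.46 and 4.31 in WT samples (log2 difference -0.60, standard error 0.17, limma adjusted p = 0.23). *Raet1e*, a ligand of the NKG2D receptor of natural killer cells, had -0.40 (limma adjusted p = 0.30), and *Fcgrt*, the neonatal Fc receptor chain that also pairs with beta-2 microglobulin, had -0.26 (limma adjusted p = 0.39). None of the 13 genes of class II presentation reached an unadjusted p of 0.05, and their differences lay between -0.18 and 0.26.

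The strain label names FVB and does not give the MHC haplotype of the pools, and the part of haplotype in the *H2-D1* signal was not tested. The region between *H2-K2* and *H2-M2*, the outermost H2 genes of the cluster on chromosome 17, held 185 named genes, among them 6 of the 10 genes described. *H2-D1* had the lowest log2 difference of the 185, the next being -0.74 in *Hspa1b*. The highest was 1.04 in the predicted gene Gm8909, which was higher in each labelled sample and had a mean signal in the lowest 25% of named genes. Both were named after their values were seen. Of 143 genes of the region in no antigen presentation list, 8 were apart in the lower and 16 in the higher direction, and the median was 0.01. Over all named genes, 8.45% were apart in the lower and 9.45% in the higher direction, or 17.9% in either, so that most genes overlap. The groups overlapped in all 6 measured genes nearest to *H2-D1*, 3 on each side. *Ddx39b*, an RNA helicase gene on one side, had a log2 difference of 0.04 (standard error 0.09). *H2-Q1* on the other side was at 4.01, 4.46 and 3.98 in labelled samples and at 3.53, 4.06 and 3.61 in WT samples. Of the 143 genes, those with the smallest p were *Psors1c2* (0.93, limma adjusted p = 0.15), *Ddah2* (-0.72, limma adjusted p = 0.16) and *Dhx16* (0.43, limma adjusted p = 0.17).

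**Figure D3:**
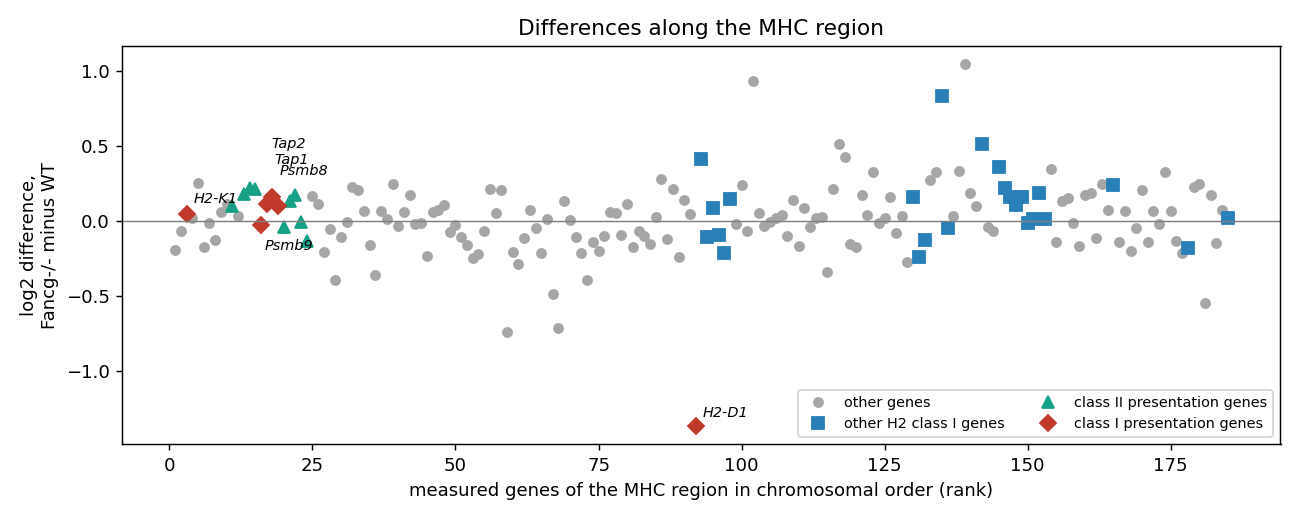
Log2 difference, Fancg-/- minus WT (vertical axis), of the 185 measured genes of the MHC region, placed by their rank in chromosomal order (horizontal axis, not to physical scale). H2-D1, at -1.37, is the lowest point, the highest is at 1.04, and H2-K1, Tap1, Tap2, Psmb8 and Psmb9, toward the H2-K2 end, lie between -0.03 and 0.16.

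Marker lists of other cells of the fetal gonad were set beside *H2-D1* and *B2m*, and none of their genes was called after adjustment. The 8 measured fetal Leydig cell markers, mostly genes of steroid synthesis, had a mean of 5.50, 5.08 and 5.59 in labelled samples and of 6.34, 6.68 and 6.93 in WT samples. No value is 0 on these arrays, so that absence of a marker cannot be read. All 8 had a difference below 0, with a median of -1.20, and 7 of 8 were apart in the lower direction. Over all named genes, 8.45% were apart in that direction. *Cyp11a1*, the first enzyme of steroid synthesis, was at 4.37, 3.72 and 4.77 in labelled samples and at 6.10, 6.60 and 6.88 in WT samples, a log2 difference of -2.24 (standard error 0.28, limma adjusted p = 0.11). By difference it ranked 2 from the lowest of all named genes. Of 15 stromal markers, 7 were apart in the lower direction with a median of -0.29, their mean lying between 5.32 and 5.44 in labelled samples and between 5.47 and 5.89 in WT samples. Of 13 Sertoli cell markers, 3 were apart in the lower direction with a median of -0.37, and their mean, which overlapped between groups, lay between 6.32 and 6.77 in labelled samples and between 6.66 and 7.19 in WT samples. Labelled replicate 2 was the lowest sample in *H2-D1*, in *B2m* and in the Leydig and Sertoli cell means. WT replicate 3 was the highest in *B2m* and in both of these means, whereas WT replicate 2 was the highest in *H2-D1*. In sorted bulk samples, fewer cells of a type and less RNA per cell cannot be told apart, and the part of these cells in the *H2-D1* and *B2m* values was not tested.

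Markers of macrophages and endothelial cells, which carry class I molecules, are described in the same way. The part of these cells in the *H2-D1* and *B2m* values was not tested. The mean of 15 macrophage markers was between 4.15 and 4.16 in labelled samples and between 4.09 and 4.16 in WT samples, with a median difference of 0.03. Of these, 2 were apart in the lower and 1 in the higher direction. Over all named genes, 8.45% were apart in the lower and 9.45% in the higher direction. The smallest p were those of *Mpeg1*, with a log2 difference of -0.31 (limma adjusted p = 0.24), *Tyrobp*, with 0.59 and groups that overlapped (limma adjusted p = 0.31), and *Adgre1*, with 0.24 (limma adjusted p = 0.37). *Mpeg1* and *Adgre1* had a mean signal in the lowest 25% of named genes. Of 15 endothelial markers, 14 had a difference above 0, 5 were apart in the higher direction and none in the lower, with a median of 0.31. The brightest of them, *Pecam1*, named after its values were seen, had means of 9.92 in labelled and 9.54 in WT samples. Both lie above the sample means of the germ cell markers, but signals of different genes are not on a common scale. Whether the *Pecam1* signal is endothelial was not tested. The mean of 9 erythroid markers was 4.92, 4.58 and 3.74 in labelled samples and 4.56, 4.49 and 3.97 in WT samples. Replicate 3 was thus the lowest in both groups.

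The genes most like *H2-D1* over the 6 samples were sought by the root mean square difference of values centred on the mean of each gene, among 20271 named genes after predicted genes and small RNAs were left out. The nearest was *Star*, the cholesterol transporter of steroidogenic cells, with a distance of 0.21 log2 units. It was at 5.31, 4.99 and 5.50 in labelled samples and at 6.20, 6.61 and 6.49 in WT samples, with the same lowest and highest samples as *H2-D1*. *Lhcgr*, the LH receptor gene, followed at 0.28, then the pseudogene *Pisd-ps1* at 0.31 and the matrix genes *Aspn* and *Ogn* at 0.32 each. *Star* and *Lhcgr* are in the Leydig cell list and *Aspn* and *Ogn* in the stromal list. *H2-D1* and these genes were ranked on the same 6 samples that separate the groups, so that the likeness is a description.

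**Figure D4:**
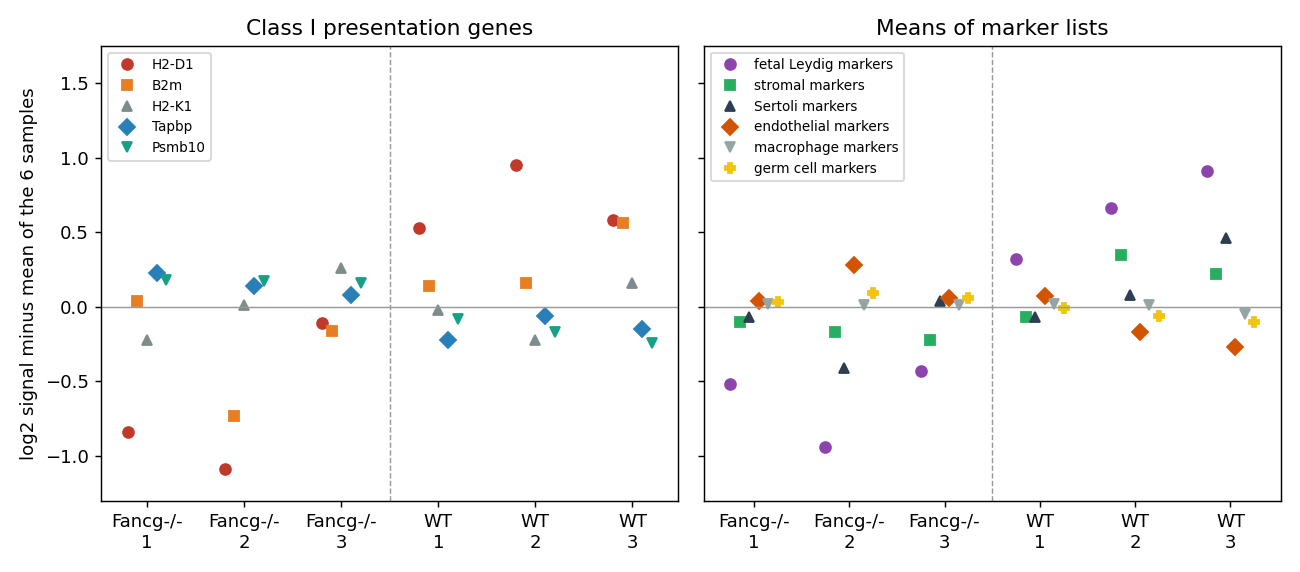
Log2 signal minus the mean of the 6 samples (vertical axis) for 5 class I presentation genes (left panel) and for the means of 6 marker lists (right panel), with the 3 samples labelled Fancg-/- left of the dashed line and the 3 WT samples right of it. H2-D1 lies between -1.09 and -0.11 in labelled samples and between 0.53 and 0.95 in WT samples, and the mean of the fetal Leydig markers lies between -0.94 and -0.43 in labelled samples and between 0.32 and 0.91 in WT samples.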

How the data were processed

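PGCs were sorted from E13.5 male gonads, and RNA of 3 samples labelled *Fancg*-/- and 3 WT samples was amplified and hybridised to Affymetrix Mouse Gene 2.0 ST arrays. The authors deposited log2 values made by RMA, 1 row for each Entrez gene, and the submitters' processing notes also name Partek. No version or genome build was found in the sources used here. RMA summarises all probes of a gene into 1 value, so that a mismatch of single probes cannot be seen. Of 24479 rows, 23837 could be named through a RefSeq gene table of assembly GRCm38.p6 or the platform annotation, and 642 without a name were not tested.

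Groups came from the sample titles. The labels number the pools but do not say more of how they were made, and p-values measure the spread between these pools. In R 4.3.3, limma 3.58.1 was fitted to each gene as *Fancg*-/- minus WT, p-values were adjusted over all named genes by the Benjamini-Hochberg method, and genes were called at an adjusted p under 0.05. The fit was tested on simulated data. The 10 genes and all lists were chosen with earlier results of these data known, and no set of genes was tested. Genes named were the 10 genes, up to 4 per presentation or interferon list and up to 3 per marker list and for the MHC region with the smallest p, *Rfx5* and *Mill2*, the 5 genes most like *H2-D1*, and *Fancg*, apart from those stated. The values of 1 listed gene are not reported here. The MHC region was set by gene order, leaving out 4 H2 entries that the table places far from the cluster. Alternatives were a further quantile normalization, equal array medians, the replicate number as a block, array weights, a robust prior with a trend on intensity, the methods' t-test, leaving out dim genes, testing all rows, and leaving out each sample. Motifs were searched with Python 3.11.15 and promoters aligned with Biopython 1.88.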

Additional observations from a re-analysis of the deposited data

How the results depend on the processing

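No gene was called over all named genes in any alternative but 1. Without WT replicate 1, limma at an adjusted p under 0.05 called 3 genes, *Cntfr*, *Hsd3b1* and DQ267100, named after their values were seen, and leaving out single samples gave 0 to 3 calls. The log2 differences of *H2-D1*, *B2m*, *Tapbp*, *Psmb8* and *Psmb10* kept their sign in all 9 alternatives run for them, and those of *H2-K1*, *Tap1*, *Tap2*, *Psmb9* and *Nlrc5* turned in 1 to 3. Where the groups were apart, as in *H2-D1*, *B2m*, *Tapbp* and *Psmb10*, leaving out a sample could not turn the sign. The block could not change the difference of any gene. With dim genes left out, *Tap2* was not tested. *H2-D1* and *B2m* stayed apart in the lower direction, and *Tapbp* and *Psmb10* in the higher, also without any single sample. This had to be so, as groups that are apart stay apart when a sample is left out. Counts of the 10 genes apart were 2 to 3 in each direction. With 1 sample left out, groups were apart in the lower direction in 12.2% to 14.5% and in the higher direction in 13.6% to 17.2% of all genes, and *Tap1* joined the lower genes without labelled replicate 3 and *Psmb8* the higher genes without WT replicate 3. The median of the 10 genes lay between -0.04 and 0.14 over the samples left out, the value below 0 being that without WT replicate 2. By the methods' t-test, 11 of the 133 related genes were higher at an unadjusted p under 0.05, against 6 by limma, and the cause was not tested. Over all named genes, 2408 by that test and 2956 by limma were at this threshold in either direction. The share of all genes higher by that test is not given here, so that nothing is read from the count. Whether same-numbered samples belong together is not given by the labels. Their deviations correlated at -0.14, -0.11 and 0.03 over genes, which does not settle it, as some genes could still share a batch. The mean of the erythroid markers was lowest in replicate 3 of both groups, and whether these samples share a batch was not tested. With the replicate number as a block, 0 genes were called, and 9 related genes were lower and 8 higher at an unadjusted p under 0.05 from limma. The shares of all genes under the block are not given here, and nothing is read from these counts. The median of the 10 genes was again 0.07, as a block with 1 sample of each group cannot change a difference of means.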
